A study of Mus musculus with 6 samples.

Results

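Keratins are the filament proteins of epithelial cells, and 10 of them were followed here from normal mouse penile epithelium into penile squamous cell carcinoma. They were taken by symbol from the 24063 gene symbols of the deposited count tables and read as basal (Krt5, Krt14), suprabasal (Krt1, Krt10), mucosal (Krt4, Krt13) and stress keratins (Krt6a, Krt6b, Krt16, Krt17). All 10 were present, each with a single transcript row, and all 10 passed the filter on low counts. RNA-seq had been performed on penile tumors of 3 SA mice and on the penile epithelium of 3 WT mice, all males of 5 months. SA mice carry the PB-Cre transgene of the PB-Cre4 line together with homozygous floxed alleles of both Smad4 and Apc (PB-Cre+ Smad4L/L ApcL/L). The transgene drives Cre from an androgen-responsive promoter, so that deletion is directed to the androgen-responsive epithelium. WT mice were C57BL/6 without the transgene or the floxed alleles. The strain of the SA mice was not given in the sources used here, so that genotype, strain and tumor cannot be told apart. The labels call the 3 libraries of a group replicates, and p-values measure the spread between these libraries.

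A keratin filament is built from pairs of a type I and a type II keratin in equal amounts. In stratified epithelia the dividing basal layer makes the type II keratin Krt5 with the type I keratin Krt14. Cells that leave this layer switch to Krt1 with Krt10 where the surface cornifies, as in skin, or to Krt4 with Krt13 where it stays moist, as in the mouth and esophagus. The type II keratins Krt6a and Krt6b and the type I keratins Krt16 and Krt17 are known as stress or wound keratins, because injured and hyperproliferative epidermis makes them. Some of them are also made without injury in the hair follicle, nail and tongue.

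The type II members lie in the keratin cluster on chromosome 15 of mm10 and the type I members in that on chromosome 11, all on the minus strand. Positions are those of the RefSeq genes over all their transcripts. On chromosome 15 the order is Krt6b (NM_010669, 101676023 to 101680293), Krt6a (NM_008476, 101689928 to 101694305), Krt5 (NM_027011, 101707069 to 101712905), Krt1 (NM_008473, 101845426 to 101850786) and Krt4 (NM_008475, 101918535 to 101924735). On chromosome 11 it is Krt10 (NM_010660, 99385254 to 99397449), Krt13 (NM_010662, 100117327 to 100121566), Krt14 (NM_016958, 100203162 to 100207510), Krt16 (NM_008470, 100246091 to 100248902) and Krt17 (NM_010663, 100256215 to 100261029). Genes that rose and genes that fell in the tumors lie in both clusters.

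Gene rows summed to between 23828283 and 110509147 counts per library, with the third SA library deepest, at 4.42 times the median of the remaining 5. Ribosomal precursor RNA (Rn45s) took 3.26% to 5.12% of the counts in SA libraries and 1.17% to 1.52% in WT libraries. Smad4 was at 36.6, 36.1 and 46.1 CPM (normalised counts per 1e6 counts) in SA tumors and at 61.2, 69.7 and 72.5 in WT penises. Apc was higher in SA tumors, at 253, 194 and 197 CPM against 62.5, 85.3 and 91.1. These counts cover whole transcripts and do not show the floxed exons separately, so that they do not check the deletion. Of 9 general epithelial genes, Cdh1 (E-cadherin) was at 433 ± 42.6 CPM in SA tumors, against 420 ± 15.9 for WT penises (SD, n = 3 each), whereas Perp, Itgb4 and Trp63 fell, with log2 fold changes of -1.30, -1.14 and -0.82. The remaining 5 were not called.

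CPM values were TMM-normalised, and the difference between SA and WT was tested with edgeR's quasi-likelihood test over 16336 genes. A gene is said to rise or fall when its Benjamini-Hochberg adjusted p-value was under 0.01, and changes of at least 4-fold, the study's second threshold, are named as such. Of the 10 keratins, 3 rose (Krt6b, Krt16, Krt17), where 20.1% of all genes tested rose, and 4 fell (Krt5, Krt1, Krt10, Krt13), where 17.5% of all genes fell. Together 7 of 10 were called, beside 37.6% of all genes. The median log2 fold change of the 10 was -0.42 (SA minus WT), beside 0.03 over all genes tested. Krt6b and Krt17 rose at least 4-fold, as did 9.41% of all genes, and none fell at least 4-fold, as did 3.59% of all genes, with Krt10 just short of that size at 3.92-fold lower. The remaining 3, Krt14, Krt4 and Krt6a, were not called. In all 7 called keratins the 3 SA values lay entirely above or entirely below the 3 WT values, which was also so for 63.4% of all genes.

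**Figure D1:**
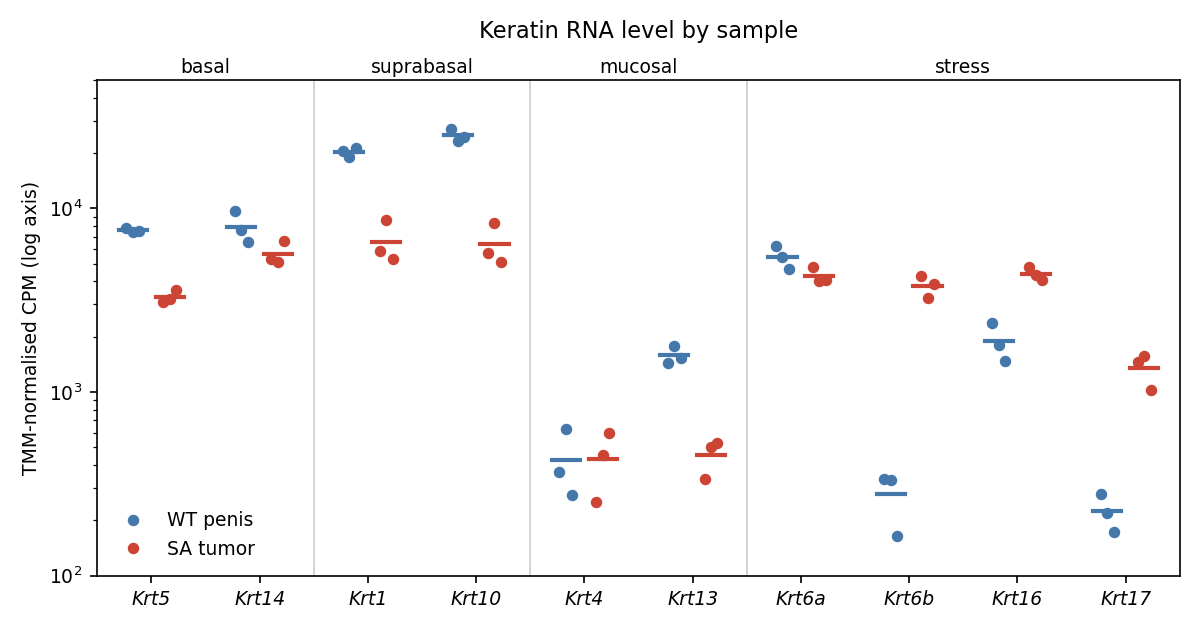
TMM-normalised CPM (log axis) of the 10 keratins in each of the 3 WT penises (blue) and 3 SA tumors (red), grouped by class, with a bar at each group mean. The groups are apart for Krt5, Krt1, Krt10, Krt13, Krt6b, Krt16 and Krt17 and overlap for Krt14, Krt4 and Krt6a.

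Bulk RNA cannot tell fewer cells of a type from less RNA per cell, and the tissues differed in more than keratins. Over 6 smooth muscle genes (Acta2, Myh11, Tagln, Cnn1, Des, Actg2) the summed level was 35.6 to 124 CPM in SA libraries and 1539 to 2056 in WT libraries, and all 6 fell at least 4-fold. Over 7 leukocyte genes it was 1496 to 2616 CPM in SA and 105 to 181 in WT libraries, mostly from S100a8 and S100a9. Of the 7, 3 rose (S100a8, S100a9 and Cd14) and 4 were not called (Ptprc, Itgam, Cd68 and Cd3e). Which cells made the S100a8 and S100a9 RNA was not tested. Over 6 fibroblast genes the summed level was 1285, 3705 and 4763 CPM in the SA tumors and 6073 to 6355 in WT penises. Of them 1, Dcn (decorin), fell. Of 5 endothelial genes, 1 (Pecam1) fell. The part of these differences in the keratin results was not tested. The 9 epithelial genes, which include the basal factor Trp63 and the junction gene Perp, had a median log2 fold change of -0.29, and 3 of 9 fell (those named above). Scaling the libraries to these 9 genes moved the median log2 fold change of all genes from 0.03 to 0.50. Each keratin is therefore also given on that scale where its call or direction depended on it.

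The basal keratins were high in both groups, and the 2 partners did not behave alike. Krt5 was at 3071, 3194 and 3587 CPM in SA tumors and at 7814, 7458 and 7569 CPM in WT penises. Every SA tumor held less Krt5 RNA than every WT penis, with a log2 fold change of -1.21 (adjusted p = 7.35e-05, standard error, SE, 0.120), or 2.32-fold lower. Scaled to the 9 epithelial genes, the Krt5 change was -0.74 and was no longer called (adjusted p = 0.0567). Krt14 was at 5278, 5072 and 6656 CPM in SA tumors and at 9692, 7601 and 6532 CPM in WT penises. The highest SA value lay above the lowest WT value, and the log2 fold change of -0.49 (95% interval -0.90 to -0.07) did not pass the threshold (adjusted p = 0.0504). Compared per length, as FPKM, Krt5 was present at 0.441, 0.477 and 0.408 of the level of Krt14 in SA tumors and at 0.611, 0.744 and 0.878 in WT penises. The ratio was lower in each SA tumor than in any WT penis.

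The suprabasal pair Krt1 and Krt10, the keratins of cornifying cells, fell together. Krt1 was at 5846, 8614 and 5284 CPM in SA tumors and at 20526, 19113 and 21305 CPM in WT penises, a log2 fold change of -1.63 (adjusted p = 0.000225, SE 0.198). Krt10 was at 5676, 8361 and 5083 CPM in SA tumors and at 27076, 23292 and 24585 CPM in WT penises, a log2 fold change of -1.97 (adjusted p = 9.55e-05, SE 0.205). The second SA tumor held the most of both keratins among the tumors, and its values were still below the lowest WT values. By FPKM, Krt10 was the highest of all 24063 genes and Krt1 the second highest in each WT penis. In SA tumors Krt10 ranked 5, 2 and 7 and Krt1 ranked 6, 4 and 8, so that both stayed among the most abundant RNAs. Scaled to the epithelial genes, Krt10 was still called (log2 fold change -1.45, adjusted p = 0.00416) and Krt1 was not (-1.10, adjusted p = 0.0200). The ratio of Krt1 to Krt10 by FPKM was 0.881, 0.881 and 0.889 in SA tumors and 0.648, 0.702 and 0.741 in WT penises. Relative to the basal type I keratin Krt14, Krt10 stood at 0.853, 1.31 and 0.606 in SA tumors and at 2.22, 2.43 and 2.99 in WT penises. Relative to the basal type II keratin Krt5, Krt1 stood at 1.70, 2.41 and 1.32 in SA tumors and at 2.35, 2.29 and 2.52 in WT penises. The ranges of this second ratio overlap.

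The mucosal keratins were the least abundant class in both groups, and of the 2 only Krt13 was called. Krt13 was at 337, 499 and 529 CPM in SA tumors and at 1443, 1784 and 1525 CPM in WT penises, a log2 fold change of -1.80 (adjusted p = 8.56e-05, SE 0.184). All SA values of Krt13 were below all WT values, by 3.48-fold in the fit. Krt4 ranged from 250 to 595 CPM over the SA tumors and from 274 to 631 over the WT penises. These ranges overlap almost completely. With 3 samples in a group, the log2 fold change was 0.03 with a 95% interval of -0.93 to 1.00 (adjusted p = 0.953), so that changes within that interval are not excluded. Its sign turned in 4 of 6 fits when single libraries were omitted. The FPKM of Krt13 was computed by the authors over 1314 bases, the coding length, where the annotated transcript has 1654, so that its level per length is on another footing than that of the others. The ratio of Krt4 to Krt13 was 0.457, 0.562 and 0.694 in SA tumors and 0.156, 0.218 and 0.111 in WT penises, and this between-group difference does not depend on the length used.

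The promoters of 4 of the 10 genes were available in RefSeq (GRCm38.p6), those of Krt5, Krt10, Krt13 and Krt14. The 250 bases before the start site are shown for the 3 genes that fell, one from each of the basal, suprabasal and mucosal classes, with the start site directly after the last base. Krt13 has 2 entries and the upstream one is shown. Capitals mark matches on either strand to TATAAA (the TATA box), to TGANTCA (bound by AP-1 factors) or to ATCAAAG or TTCAAAG (bound by TCF/LEF factors, the partners of beta-catenin), none of which overlap here. The windows lie on the minus strand at chr15:101712906-101713155 (Krt5), chr11:99389365-99389614 (Krt10) and chr11:100121567-100121816 (Krt13). The Krt10 window lies inside the RefSeq gene given above, which also covers a longer transcript model, and directly upstream of the first base, 99389364, of the GENCODE transcript matched to NM_010660, the one counted.
Krt5: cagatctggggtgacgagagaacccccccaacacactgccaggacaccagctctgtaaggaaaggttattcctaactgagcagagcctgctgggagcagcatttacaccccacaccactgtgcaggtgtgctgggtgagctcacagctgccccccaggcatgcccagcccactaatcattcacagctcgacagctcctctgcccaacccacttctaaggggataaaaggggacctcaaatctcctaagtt
Krt10: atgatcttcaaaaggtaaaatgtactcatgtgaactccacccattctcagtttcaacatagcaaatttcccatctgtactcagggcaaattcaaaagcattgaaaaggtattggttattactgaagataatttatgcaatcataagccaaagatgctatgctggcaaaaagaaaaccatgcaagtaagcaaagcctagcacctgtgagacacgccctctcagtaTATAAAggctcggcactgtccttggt
Krt13: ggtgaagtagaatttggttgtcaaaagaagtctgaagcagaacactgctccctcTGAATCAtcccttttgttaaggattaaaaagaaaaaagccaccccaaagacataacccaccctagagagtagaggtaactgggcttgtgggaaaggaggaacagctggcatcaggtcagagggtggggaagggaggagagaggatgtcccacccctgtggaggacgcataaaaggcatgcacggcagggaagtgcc
Krt10 held TATAAA starting 26 bases before the start site, as did 12.4% of 32851 promoters of this length at any position. Krt13 held TGANTCA starting 196 bases before it, a sequence found in 6.75% of promoters, and its second entry held it at 183 and 34 bases before the start. None of the 3 windows held ATCAAAG or TTCAAAG, found in 7.48% of promoters, and the Krt5 window held none of the letters searched. A match describes the letters only.

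The stress keratins divided into 3 genes that rose and 1, Krt6a, that was not called. Krt6b was at 4270, 3238 and 3860 CPM in SA tumors and at 337, 333 and 165 CPM in WT penises. Each tumor lay far above the highest WT penis, and the log2 fold change was 3.77 (adjusted p = 2.86e-05, SE 0.294), a 13.6-fold increase. Krt17 was at 1461, 1563 and 1030 CPM in SA tumors and at 280, 219 and 174 CPM in WT penises, a log2 fold change of 2.59 (adjusted p = 3.49e-05, SE 0.221) or 6.03-fold. Krt16 was at 4772, 4349 and 4073 CPM in SA tumors and at 2386, 1809 and 1473 CPM in WT penises, a log2 fold change of 1.22 (adjusted p = 0.000689, SE 0.183) or 2.33-fold. For these 3 genes no SA value overlapped a WT value. Krt6a was at 4797, 4017 and 4057 CPM in SA tumors and at 6263, 5424 and 4650 CPM in WT penises, with the first SA tumor above the third WT penis. Its log2 fold change of -0.34 (95% interval -0.69 to -0.003) was not called (adjusted p = 0.0829), and it was 0.10 on the scale of the epithelial genes (adjusted p = 0.794).

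**Figure D2:**
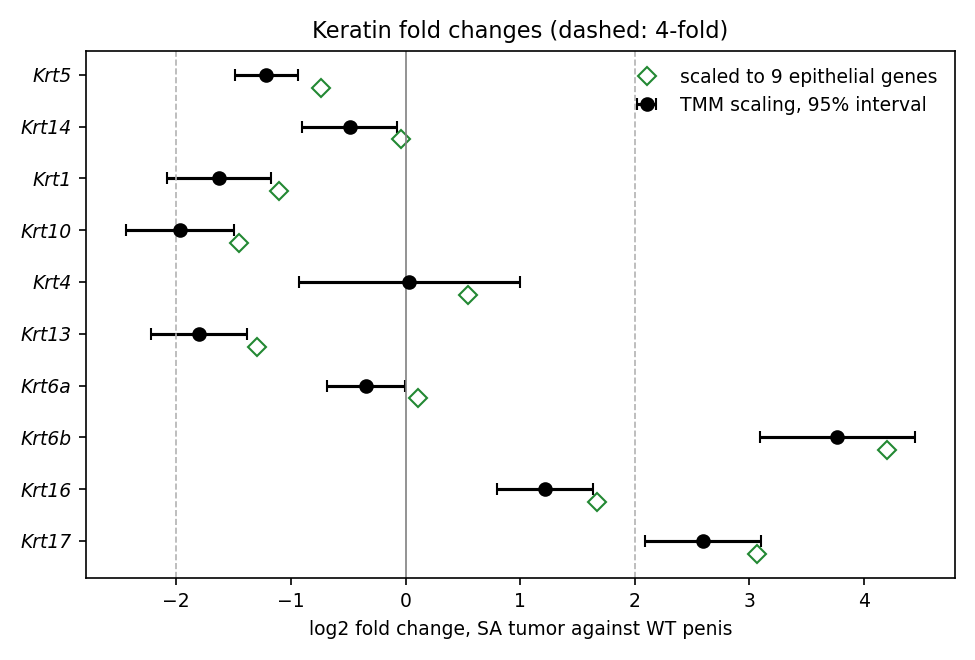
Log2 fold change of each keratin between SA tumors and WT penises, with its 95% interval under TMM scaling (black) and the estimate when libraries were scaled to 9 epithelial genes (green diamonds); dashed lines mark 4-fold. Krt6b (3.77) and Krt17 (2.59) lie beyond 4-fold, Krt10 (-1.97) lies next to it, and Krt6a crosses 0 between the scalings.

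Krt6a and Krt6b are near copies of each other, separated by 9634 bases, and their contrast rests on reads that can be assigned to one of them. Their coding sequences (GENCODE transcripts on GRCm38) were identical at 1625 of 1662 aligned bases, 97.8%. The 90 coding bases within a single exon that differ most, in exon 4 of each gene, are shown because they are where a read tells the genes apart; capitals mark the 12 positions that differ, at chr15:101692484-101692573 for Krt6a and chr15:101678303-101678392 for Krt6b, both on the minus strand.
Krt6a: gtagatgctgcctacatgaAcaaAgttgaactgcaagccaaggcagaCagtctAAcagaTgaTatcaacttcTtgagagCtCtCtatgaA
Krt6b: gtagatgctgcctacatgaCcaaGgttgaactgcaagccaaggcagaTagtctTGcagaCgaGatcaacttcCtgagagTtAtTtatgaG
The longest run shared without a difference is 280 bases of exon 1 (coding bases 34 to 313 of both genes, chr15:101693936-101694215 in Krt6a and chr15:101679911-101680190 in Krt6b), shown because reads from it fit both genes.
Shared: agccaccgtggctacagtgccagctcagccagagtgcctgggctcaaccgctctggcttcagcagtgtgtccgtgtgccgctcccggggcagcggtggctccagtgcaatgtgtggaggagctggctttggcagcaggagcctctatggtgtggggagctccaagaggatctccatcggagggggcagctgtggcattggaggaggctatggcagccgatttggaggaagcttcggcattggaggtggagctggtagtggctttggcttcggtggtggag
Of the 76-base windows (a length taken here for a read) of the Krt6a transcript, 790 of 2203 occurred unchanged in Krt6b, and 41.9% occurred in some other gene. For Krt6b the share in some other gene was 39.2%, for Krt16 28.7% (334 of 1490 windows in the locus Gm11597 and 94 in Krt14), for Krt14 5.79% and for Krt5 5.04%. Krt1, Krt10, Krt4, Krt13 and Krt17 shared no window. How the authors' counting treated a read that fits 2 genes was not stated, so that the levels of Krt6a, Krt6b and Krt16 are less certain than those of the others. The reads were paired, and these window shares do not take the second read of a pair into account.

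Side by side per length, the ratio of Krt6b to Krt6a was 0.899, 0.814 and 0.960 in SA tumors, near equality. It was 0.0542, 0.0620 and 0.0358 in WT penises, where the RNA assigned to Krt6b was a small fraction of that assigned to Krt6a. The sum of both rose from 1785, 1588 and 1332 FPKM in WT penises to 3007, 2396 and 2648 FPKM in SA tumors without overlap, and a read moved from one copy to the other changes that sum little, since the transcripts are of similar length. Against the type I stress keratin Krt16, Krt6a stood at 0.697, 0.640 and 0.690 in SA tumors and at 1.82, 2.08 and 2.19 in WT penises. Krt6b exceeded Krt17 in every SA tumor, at 1.97, 1.40 and 2.53 times its level, and stood at 0.812, 1.03 and 0.641 of it in WT penises. Krt16 was the more abundant type I stress keratin in all 6 libraries, at 2.69 to 3.82 times Krt17 in SA tumors and 7.97 to 8.23 times in WT penises.

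**Figure D3:**
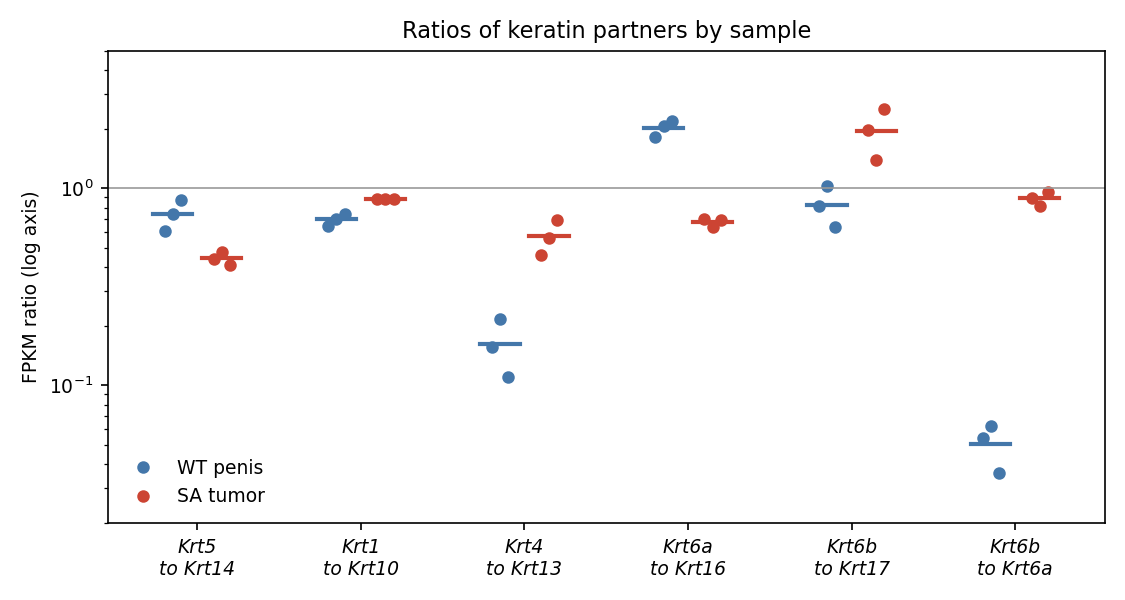
Ratio of FPKM (log axis) between type II and type I partners, and between Krt6b and Krt6a, in each WT penis (blue) and SA tumor (red) with a bar at each group mean; the grey line marks equal levels. Each of the 6 ratios is apart between the groups, most widely Krt6b to Krt6a (0.0507 in WT penises and 0.891 in SA tumors on average).

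The make-up of the 10-keratin total, summed as FPKM, moved from suprabasal to stress keratins. The total was 13502, 14605 and 13325 FPKM in SA tumors and 22369, 20195 and 20186 FPKM in WT penises, lower in every tumor. Suprabasal keratins made up 28.2%, 38.2% and 25.9% of it in SA tumors and 58.2%, 58.4% and 63.3% in WT penises. Stress keratins made up 44.4%, 35.8% and 38.4% in SA tumors and 12.7%, 11.9% and 9.87% in WT penises. The basal share was 26.7% ± 4.62 in SA tumors, against 24.4% ± 1.42 for WT penises, and the mucosal share 2.98% ± 0.890 and 4.18% ± 0.834 (SD, n = 3 each), with overlapping ranges in both. Within the basal share, Krt5 went from 10.3% ± 0.505 of the total to 8.13% ± 0.972, while Krt14 went from 14.1% ± 1.88 to 18.6% ± 3.65 with overlap. Krt6a had a share of 7.11% ± 0.651 in WT penises, against 10.3% ± 1.35 for SA tumors, although its own level was not called. Krt16 moved from 3.54% ± 0.625 to 15.2% ± 1.43, Krt6b from 0.366% ± 0.122 to 9.21% ± 1.65 and Krt17 from 0.436% ± 0.0753 to 4.82% ± 0.841 (SD, n = 3 each). With 3 samples in a group an exact permutation test cannot give a p-value under 0.10, so that shares and ratios are described without a test.

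The ratio of all type II to all type I members did not separate the groups. The 5 type II keratins together stood at 0.781, 0.749 and 0.750 of the 5 type I keratins in SA tumors and at 0.697, 0.765 and 0.806 in WT penises. These ranges overlap, whereas the ranges of the partner ratios given above (Krt5 to Krt14, Krt1 to Krt10, Krt4 to Krt13, Krt6a to Krt16 and Krt6b to Krt17) did not. In the tumors the order of levels per length began with Krt14 (2552 ± 404 FPKM), Krt10 (2273 ± 610), Krt16 (2098 ± 161) and Krt1 (2006 ± 532), whose means lie within 1 SD of a neighbour. Krt6a (1419 ± 144), Krt6b (1265 ± 176) and Krt5 (1120 ± 98.2) followed, then Krt17 (667 ± 136), Krt13 (259 ± 59.1) and Krt4 (152 ± 61.4). In WT penises the order was Krt10 (7391 ± 487), Krt1 (5140 ± 287), Krt14 (2957 ± 561), Krt5 (2152 ± 29.3) and Krt6a (1492 ± 204). Krt13 and Krt16 came next (747 ± 89.5 and 746 ± 173). The value of Krt13 rests on its coding length of 1314 bases and would be lower over its transcript of 1654 bases. Krt4 (123 ± 54.4), Krt17 (91.7 ± 20.7) and Krt6b (76.9 ± 26.7) were last and within their spreads of each other (SD, n = 3 each).

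**Figure D4:**
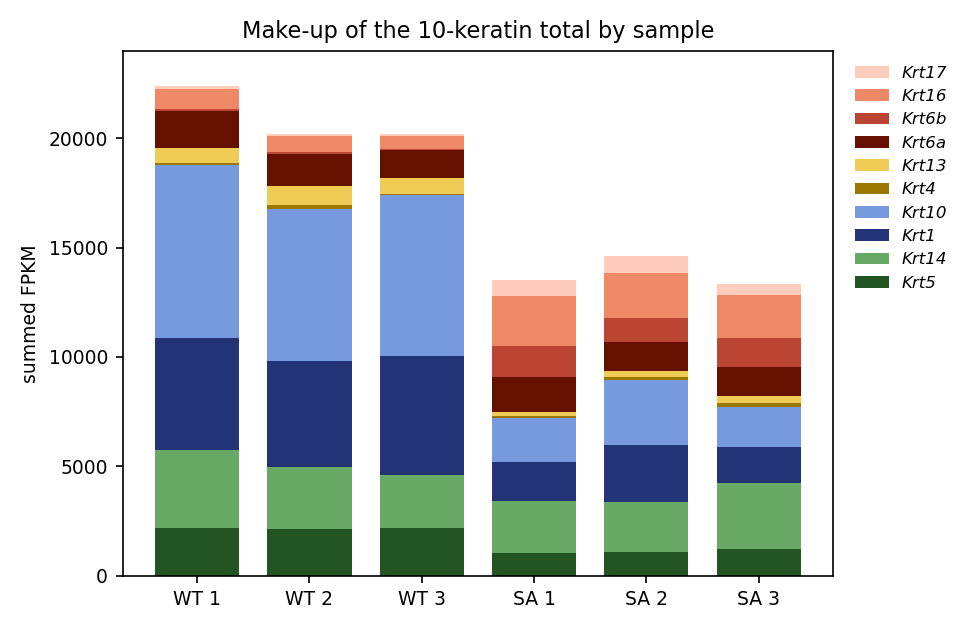
FPKM of the 10 keratins stacked by sample, from basal at the bottom to stress keratins at the top. The stacks reach 20186 to 22369 FPKM in WT penises and 13325 to 14605 in SA tumors, with a smaller suprabasal (blue) and a larger stress part (red) in each tumor.

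The 12 other soft keratins listed, which exclude the hard keratins of hair, nail and spines, moved in both directions as well. They include Krt75 and Krt79, which are known from the hair follicle. Of the 12, 4 rose and 5 fell, beside 20.1% and 17.5% of all genes tested, and the median log2 fold change was -0.21. Krt15, a basal keratin that partners Krt5, was at 123, 112 and 150 CPM in SA tumors and at 1442, 1441 and 1808 CPM in WT penises, 12.2-fold lower (log2 fold change -3.61, adjusted p = 2.11e-06). It thus fell further than either basal member. Krt78 (1577 ± 108 CPM in WT penises, 220 ± 38.0 in SA tumors) and Krt24 (17.1 ± 4.11 and 1.79 ± 0.758) also fell at least 4-fold, and Krt80, a keratin of differentiating cells, fell by 3.70-fold. Krt77, a suprabasal keratin of low level here (2.46 ± 0.264 and 0.706 ± 0.225 CPM), fell by 3.38-fold (SD, n = 3 each).

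The 4 that rose did so at least 4-fold. Krt79, known from the follicle opening and the sebaceous duct, was at 416, 455 and 168 CPM in SA tumors and at 3.93, 2.40 and 1.82 CPM in WT penises (128-fold higher, adjusted p = 7.97e-05). Krt75, the keratin of the follicle's companion layer and a relative of Krt6, was at 53.7, 44.9 and 36.7 CPM against 7.60, 6.31 and 5.29, 7.04-fold higher. Krt23 rose by 5.48-fold. Krt9, the keratin of palms and soles, was at 34.1, 14.9 and 5.42 CPM in SA tumors and at 0.769, 0.401 and 0.182 CPM in WT penises, with the widest spread among the tumors. Its WT levels were close to the counting limit, as 3 counts equal 0.137 CPM in the third WT penis. Krt2, Krt12 and Krt76 were not called. Among the 41 other keratin genes tested, those whose log2 CPM followed a class most closely over the 6 libraries were Krt80 (Pearson r = 0.991) and Krt78 (0.986) for the suprabasal class, and Krt75 (0.992) and Krt71 (0.990), an inner root sheath keratin, for the stress class. For the basal class they were Krt78 (0.957) and Krt15 (0.957), and for the mucosal class Krt77 (0.915) and Krt78 (0.806). These values come from 6 libraries in 2 groups and mostly describe the difference between the groups.

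Most genes tested for proteins that tie keratin filaments to junctions and to the cornified envelope had less RNA in SA tumors under TMM scaling. Of 9 such genes, 8 fell, beside 17.5% of all genes tested, and the median log2 fold change was -1.16. Dsp (desmoplakin), which anchors keratins at desmosomes, was at 3907, 3543 and 3623 CPM in SA tumors and at 7905, 8890 and 9090 CPM in WT penises, 2.34-fold lower. Dst (dystonin), whose epithelial form anchors Krt5 and Krt14 at hemidesmosomes, was at 187, 215 and 277 CPM against 1004, 1143 and 1288, a 5.05-fold decrease. Whether the transcript row counted for Dst is the epithelial form was not checked. Dst was the only linker to fall at least 4-fold. With transcript rows summed, 8 linkers still fell and 0 did so at least 4-fold. The envelope plakins Ppl and Evpl fell by 2.92-fold and 2.88-fold, and Jup, Pkp1, Pkp3 and Plec by 1.77-fold to 2.24-fold. Pkp2 was at 3.88 ± 0.633 CPM in SA tumors, against 2.33 ± 0.491 for WT penises (SD, n = 3 each) and was not called (adjusted p = 0.0387). On the scale of the epithelial genes, 3 of the 9 fell and 1 rose, beside 938 lower and 4787 higher of 16336 genes tested. Hard keratins of hair, nail and spines (11 genes tested) were measured as well, since the mouse penis bears cornified spines: their summed level was 343 to 933 CPM in SA libraries and 6390 to 8941 in WT libraries, and 10 of 11 fell while Krt33a rose, again beside 17.5% and 20.1% of all genes.

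**Figure D5:**
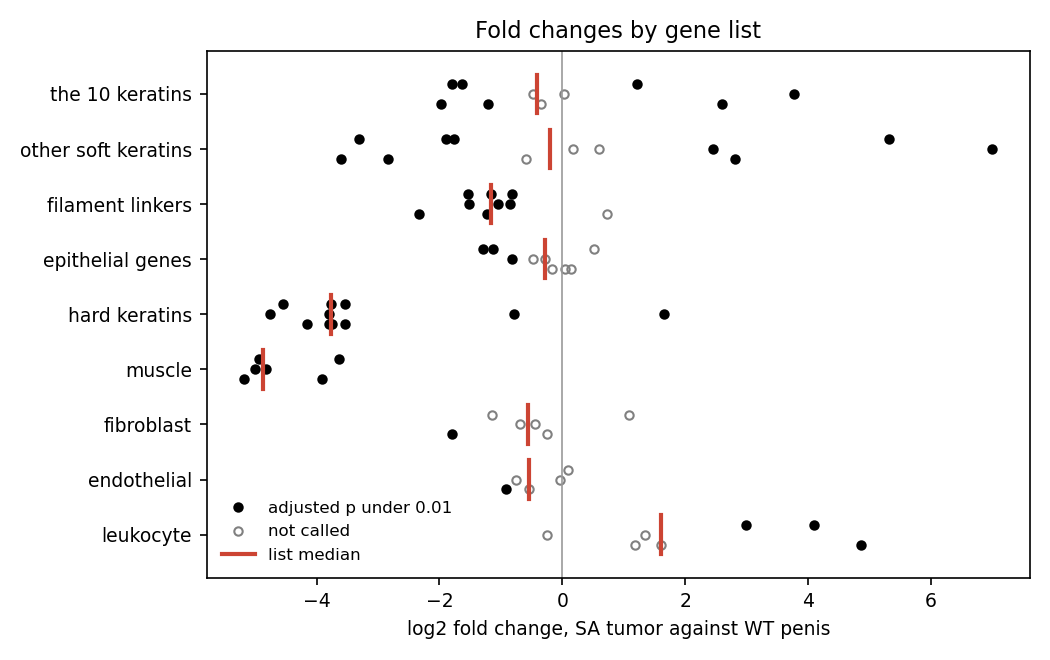
Log2 fold change between SA tumors and WT penises of every gene in each list (filled, adjusted p under 0.01; open, not called), with the list median as a red line. The 10 keratins spread from -1.97 to 3.77, whereas 8 of 9 linker genes and 10 of 11 hard keratins lie below 0 as filled points.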

How the data were processed

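RNA of 3 SA penile tumors and 3 WT penile epithelia was sequenced by the authors as stranded paired-end libraries, aligned to mm10 with TopHat and counted with HTSeq; versions are not given in the sources used here. The files that the authors deposited hold raw counts for 33068 RefSeq transcript rows. Beside these counts the authors gave FPKM and TPM, with FPKM scaled to the sum over all rows. FPKM was used for levels between genes, and TPM as an alternative. Each symbol was represented by its row of highest mean count.

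The test was edgeR 4.0.16 under R 4.3.3 (filterByExpr with a minimum count of 10 in 3 samples and a total of 15, TMM, robust quasi-likelihood F-test, Benjamini-Hochberg adjustment over 16336 genes). Log CPM used a prior count of 2. The standard error was the log2 fold change divided by the square root of F. A count of 3 equals 0.0244 to 0.137 CPM, far below every level of the 10 keratins. Among the other soft keratins, Krt9 in WT penises (0.769, 0.401 and 0.182 CPM) lay much closer to it. This comparison covers counting error only. The keratins and gene lists were chosen with earlier results of these data known. All 10 keratins are named, list genes by whether they passed both thresholds or had the extreme change, and the 2 most correlated other keratins of each class. Desmosomal and epithelial genes outside that rule are named beside their counts, after their values were seen. Flg was not analysed here.

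The alternatives were RLE scaling, library totals, TMM without the 50 highest genes, scaling to 9 epithelial genes, DESeq2 1.42.0, no filter, glmTreat, summed transcript rows, the replicate number as a block, and each library left out in turn.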

Additional observations from a re-analysis of the deposited data

How the results depend on the processing

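Krt6b, the keratin with the largest rise, kept its direction and its call under all 15 alternatives. A test against the 4-fold threshold itself (glmTreat) asks for more than a difference from 0. It left 1 keratin higher (Krt6b) and 0 lower, beside 749 higher and 180 lower of 16336 genes tested. Of the other soft keratins it left 2 higher and 3 lower, and it left 0 linkers and 0 epithelial genes lower. Scaling to the 9 epithelial genes left 2 keratins lower (Krt10 and Krt13), 3 linkers lower and 0 epithelial genes lower, and turned the sign of Krt6a to 0.105. That scaling called 4787 genes higher and 938 lower over the whole table, and library totals alone, which moved the median log2 fold change of all genes to 0.31, called 5248 and 1806, against 3283 and 2865 with TMM.

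The replicate number as a block put 1 keratin (Krt10) past 4-fold lower, beside 588 of 16336 genes tested, and changed no other keratin call. The labels do not say whether the numbers pair the samples. Residuals of same-numbered libraries had a mean correlation of -0.07, beside 0.03 for different numbers, and 3 libraries in a group are too few to decide it. When each library was left out in turn, the number of keratins past 4-fold lower was 0 to 1. This was Krt10 without SA replicate 2, WT replicate 2 or WT replicate 3, beside 555, 529 and 543 of all genes tested. The log2 fold change of Krt4 ranged from -0.26 to 0.42 without a call. Without WT replicate 1, 2 or 3, only 3 other soft keratins rose rather than 4, beside 2609, 2361 and 2592 of all genes tested. Without the length correction, as CPM, the WT shares of the total were 22.0% basal, 64.1% suprabasal and 2.86% mucosal. DESeq2 called the same numbers of keratins in each direction, 3 higher and 4 lower, beside 3882 higher and 3456 lower of 18336 genes tested. The 3 libraries in each group limit the precision of every interval; counting depth does not at these levels.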
